A study of Mus musculus with 6 samples.

Results

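DNA replication and S phase genes were followed in mouse CD4+ T cells that lacked the histone deacetylase HDAC1 and in WT cells, during the response to an antigen in vivo. The set held 43 genes of the licensing and helicase machinery, the polymerases and the fork, nucleotide supply, repair, chromatin and histone supply, and cyclin E with E2F, taken from the count table by gene symbol. Each symbol matched 1 row, so that 43 of the 55536 genes in the table were members, and all 43 were among the 15519 genes whose counts were high enough to be tested.

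The HDAC1-cKO donor cells had the genotype 2D2-Hdac1fl/fl-Cd4-Cre+ and the WT donor cells the genotype 2D2-Hdac1fl/fl-Cd4-Cre-, both on C57BL/6. All cells thus carried the 2D2 transgene, which encodes a T cell receptor that recognises myelin oligodendrocyte glycoprotein (MOG), and floxed Hdac1 alleles; WT cells are floxed cells without Cre. Cre under the Cd4 promoter is active from the thymus onward, so the gene was lost before the naive cells (CD45.2+) were injected intravenously into CD45.1+ recipients. At 18 h after transfer the recipients were immunised in the footpad with MOG35-55 in CFA (complete Freund's adjuvant), and after a further 4 days 2D2+ CD4+ CD45.2+ cells were sorted from the popliteal lymph nodes, 500 for each library, with 2 mice pooled in each of 3 replicates of either genotype. No cells from before transfer and no cells of unimmunised recipients were part of the comparison, so a difference that was already present in naive cells and one that arose during division cannot be told apart.

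A cell that is about to divide first loads the MCM ring, the core of the replicative helicase, onto origins of replication, a step called licensing. At the onset of S phase CDC45 and the GINS complex join the ring to form the active helicase, polymerases extend from primers, the PCNA clamp is loaded by replication factor C, and ribonucleotide reductase and thymidylate synthase supply the building blocks. Most of these genes are transcribed in late G1 and S phase under E2F factors, and naive T cells, which are quiescent, express them strongly only after antigen drives them into division. Outside S phase, pocket proteins bound to E2F factors are known to bring histone deacetylases, HDAC1 among them, to the E2F sites of such promoters.

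Promoter sequences are shown because E2F sites are the best known shared element of replication genes and are among the places where HDAC1 is known to be recruited. RefSeq promoters on GRCm38.p6, from 250 bases before to 50 bases after each start, were matched by symbol for 33 of the 43 members. The letters TTTCCCGC, TTTGGCGC, TTTCGCGC and TTTGCCGC were searched on both strands, and overlapping matches were joined into 1 site. In the sequences below, written 5′ to 3′ on the gene's strand, 60 bases are given for the 6 members that hold a match and have the lowest p among the members given by library; capitals mark the E2F letters or their reverse complement.
Mcm7, chr5:138171854-138171913, minus strand: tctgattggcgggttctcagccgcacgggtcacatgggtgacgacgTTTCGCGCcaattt
Cdca7, chr2:72476122-72476181, plus strand: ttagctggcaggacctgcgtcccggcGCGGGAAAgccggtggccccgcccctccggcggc
Ubr7, chr12:102757945-102758004, plus strand: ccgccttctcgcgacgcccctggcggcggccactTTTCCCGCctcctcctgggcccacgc
Mcm5, chr8:75109332-75109391, plus strand: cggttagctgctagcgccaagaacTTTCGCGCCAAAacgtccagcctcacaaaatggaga
Mcm6, chr1:128359719-128359778, minus strand: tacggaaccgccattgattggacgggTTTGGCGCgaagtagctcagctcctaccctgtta
Mcm3, chr1:20820283-20820342, minus strand: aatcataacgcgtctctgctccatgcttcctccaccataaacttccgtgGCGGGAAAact

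The Mcm5 site holds both a forward and a reverse match, which overlap. Of the 33 members with a promoter entry 14 held a match, 42.4%, while 704 of 27025 genes with a RefSeq promoter did, 2.605%, and 460 of 9496 tested genes, 4.84%. Among the other replication genes described below 14 of 57 with an entry held a match, 24.6%, and among the G2/M genes 3 of 46, 6.52%. The matches lay in 6 of 8 licensing and helicase genes, 3 of 7 polymerase and fork genes and 5 of 9 chromatin and histone genes, and in none of the 3 nucleotide supply, 4 repair and 2 cyclin E and E2F genes that had an entry. Of 17 sites 11 began upstream of the annotated start, and Mcm3, Mcm6 and Mcm7 held more than 1 site each. A match is a description of the letters and was not measured as a bound site. The log2 fold change between genotypes had a median of 0.09 over the 14 members with a match and 0.07 over the 19 with a promoter and no match. Without HDAC1-cKO replicate 2 these medians were 0.16 and 0.19, the other way round in order. The 10 members with no promoter entry, Gins2 among them, were not searched. Their median was 0.07 with all libraries and 0.28 without HDAC1-cKO replicate 2.

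**Figure D1:**
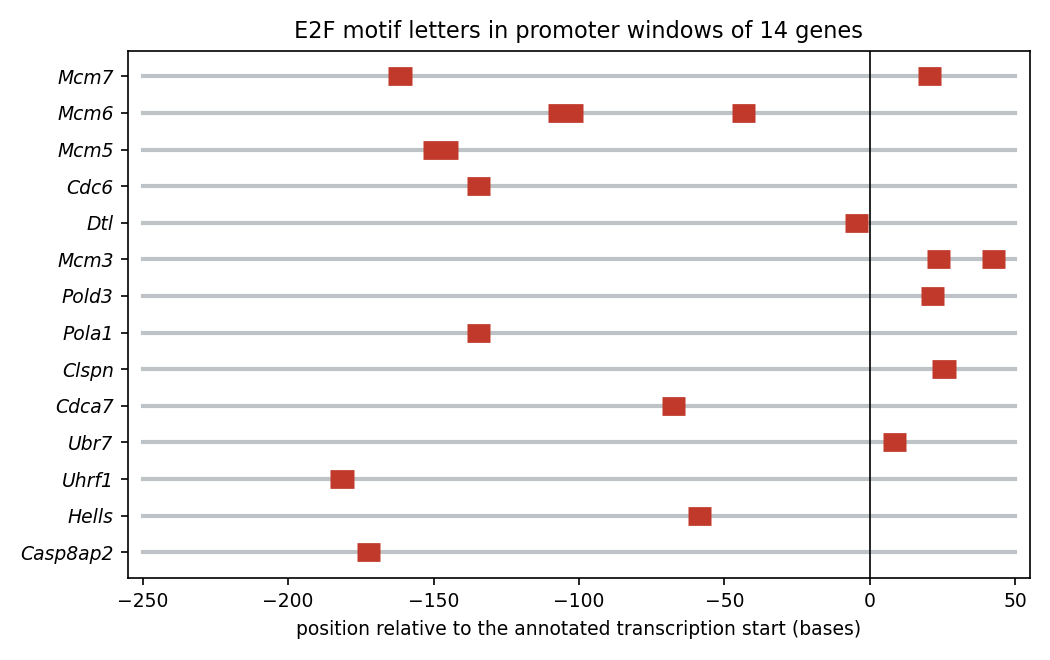
Positions of E2F motif letters in the promoter windows of the 14 members that hold a match; the horizontal axis gives bases from the annotated transcription start (0), grey lines span the searched window and red blocks mark the 17 sites. The blocks lie on both sides of the start, 11 of them upstream.

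The libraries held 19956153 to 36307610 counts in HDAC1-cKO and 39036751 to 55900237 counts in WT. Hdac1 itself, the deleted gene, stood at 15.8 ± 1.32 CPM (counts relative to a library size scaled by the trimmed mean of M values) in HDAC1-cKO cells and 238 ± 5.06 CPM in WT cells (SD, n = 3 each). Its levels were 17.2, 14.7 and 15.4 CPM against 234, 236 and 244 CPM, in keeping with the label of each library. Replicate 2 of HDAC1-cKO differed from the other 5 libraries, with 0.922% of its counts from mitochondrial genes, against 1.34 to 1.67%, and with a dependence on transcript GC content that is described below. The log2 fold changes of the members described by library are also given without it. All 13 markers that define T cells were detected, at a summed level of 26376 to 35643 CPM in HDAC1-cKO and 31028 to 36929 CPM in WT, and 2 of them, Cd3e and Cd2, fell in HDAC1-cKO cells (edgeR, adjusted p under 0.05), beside 0.992% of all tested genes lower. The list had a median log2 fold change of -0.31, and 3 of its genes were lower with offsets for each library's GC trend. When HDAC1-cKO replicate 2 was left out, 7 of the 13 were lower, beside 2.28% of all tested genes, 13 had a negative fold change and the median was -0.45. The 9 B cell markers summed to 158 to 320.2 CPM in HDAC1-cKO and 77.1 to 177 CPM in WT, with a median log2 fold change of 0.68 over the list, or -0.06 without HDAC1-cKO replicate 2. The 10 dendritic cell markers summed to 148 to 375 CPM in HDAC1-cKO and 88.6 to 289.7 CPM in WT, with Flt3 and Clec9a at 0 in every library. Cd74, H2-Ab1 and H2-Aa made up most of this. Of the 7 tested, 3 had a positive fold change and 4 a negative. Xcr1 was among the latter, at 1.55 to 4.78 CPM in HDAC1-cKO and 9.64 to 11.3 CPM in WT. The 2 CD8 T cell markers summed to 65.7 to 72.3 CPM in HDAC1-cKO and 45.4 to 59.4 CPM in WT. Cd8b1 made up nearly all of this sum, while Cd8a was at 0.936 to 2.55 CPM in HDAC1-cKO and 0.0182 to 2.37 CPM in WT. The 4 gamma delta T cell markers summed to 53.8 to 66.6 CPM in HDAC1-cKO and 46.7 to 72.2 CPM in WT. The 7 stroma and endothelium markers summed to 60.1 to 81.5 CPM in HDAC1-cKO and 64.0 to 99.4 CPM in WT. Nearly all of this was Pecam1, at 57.7 to 80.3 CPM in HDAC1-cKO and 63.3 to 98.4 CPM in WT, with Col1a2, Pdpn and Ccl21a at 0. The 8 monocyte and macrophage markers summed to 6.38 to 11.1 CPM in HDAC1-cKO and 5.85 to 28.7 CPM in WT, with Cd14 and Csf1r at 0. Lists for NK cells, plasma cells, granulocytes and erythroid cells reached at most 8.11 CPM in any HDAC1-cKO library and 3.57 CPM in any WT library. The part of these cells in the members' values was not tested.

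Among the replication and S phase genes, Gins2 was called between the genotypes, at a level of 131 ± 4.74 CPM in HDAC1-cKO, against 77.5 ± 9.88 CPM in WT (SD, n = 3 each), and the estimates for the other 42 members lay within a factor of 1.5 either way. Of the 43 members, 1 rose and 0 fell in HDAC1-cKO cells by the quasi-likelihood test of edgeR, at a Benjamini-Hochberg adjusted p under 0.05 over 15519 genes, a share of 2.33% higher, beside 0.979% of all tested genes higher and 0.992% lower. Without HDAC1-cKO replicate 2, Gins2, Rfc2 and Chaf1b were called, 3 of 43 or 6.98%, all higher, beside 1.60% of all tested genes higher and 2.28% lower. At an unadjusted p under 0.05, 5 members were higher (Gins2, Mcm2, Rfc2, Chaf1b and Ung) and 0 lower, 11.6% of the members, beside 8.62% of all tested genes higher and 8.39% lower. DESeq2 called Gins2, Mcm2, Rfc2 and Chaf1b, limma-voom with sample weights these and Dscc1, all higher, and both called 0 members lower. Over all genes DESeq2 called 4.88% higher and 4.65% lower, and limma-voom 4.96% higher and 5.28% lower.

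The log2 fold change of HDAC1-cKO over WT was positive for 27 of the 43 members and negative for 16. Its median was 0.07, beside 0.00 over all tested genes, and it ranged from -0.27 for Wdr76 to 0.76 for Gins2. For 41 of the 43 members the 95% interval of the fold change lay within a factor of 2 either way, all but Gins2 and Ccne2, and for 27 it lay within a factor of 1.5. In these bulk samples of 500 cells, a different share of cells in S phase and a different amount of transcript per cell cannot be told apart.

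The sign of the smaller differences moved with HDAC1-cKO replicate 2. Without that library 40 of the 43 members had a positive fold change, the median was 0.19, beside -0.01 over all tested genes, and 12 members were higher at an unadjusted p under 0.05, 27.9%, beside 9.58% of all genes. Leaving out HDAC1-cKO replicate 1 instead gave a median of -0.04 and 16 positive members. All 3 HDAC1-cKO libraries lay above all 3 WT libraries for 7 members (Mcm2, Mcm7, Gins2, Rfc2, Rpa2, Ung and Chaf1b), 16.3%, beside 12.7% of all tested genes, and below them for 0, beside 11.8%. With the 2 remaining HDAC1-cKO libraries, 21 members lay above all WT libraries, 48.8%, beside 19.7% of all genes, and 0 below, beside 19.3%.

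**Figure D2:**
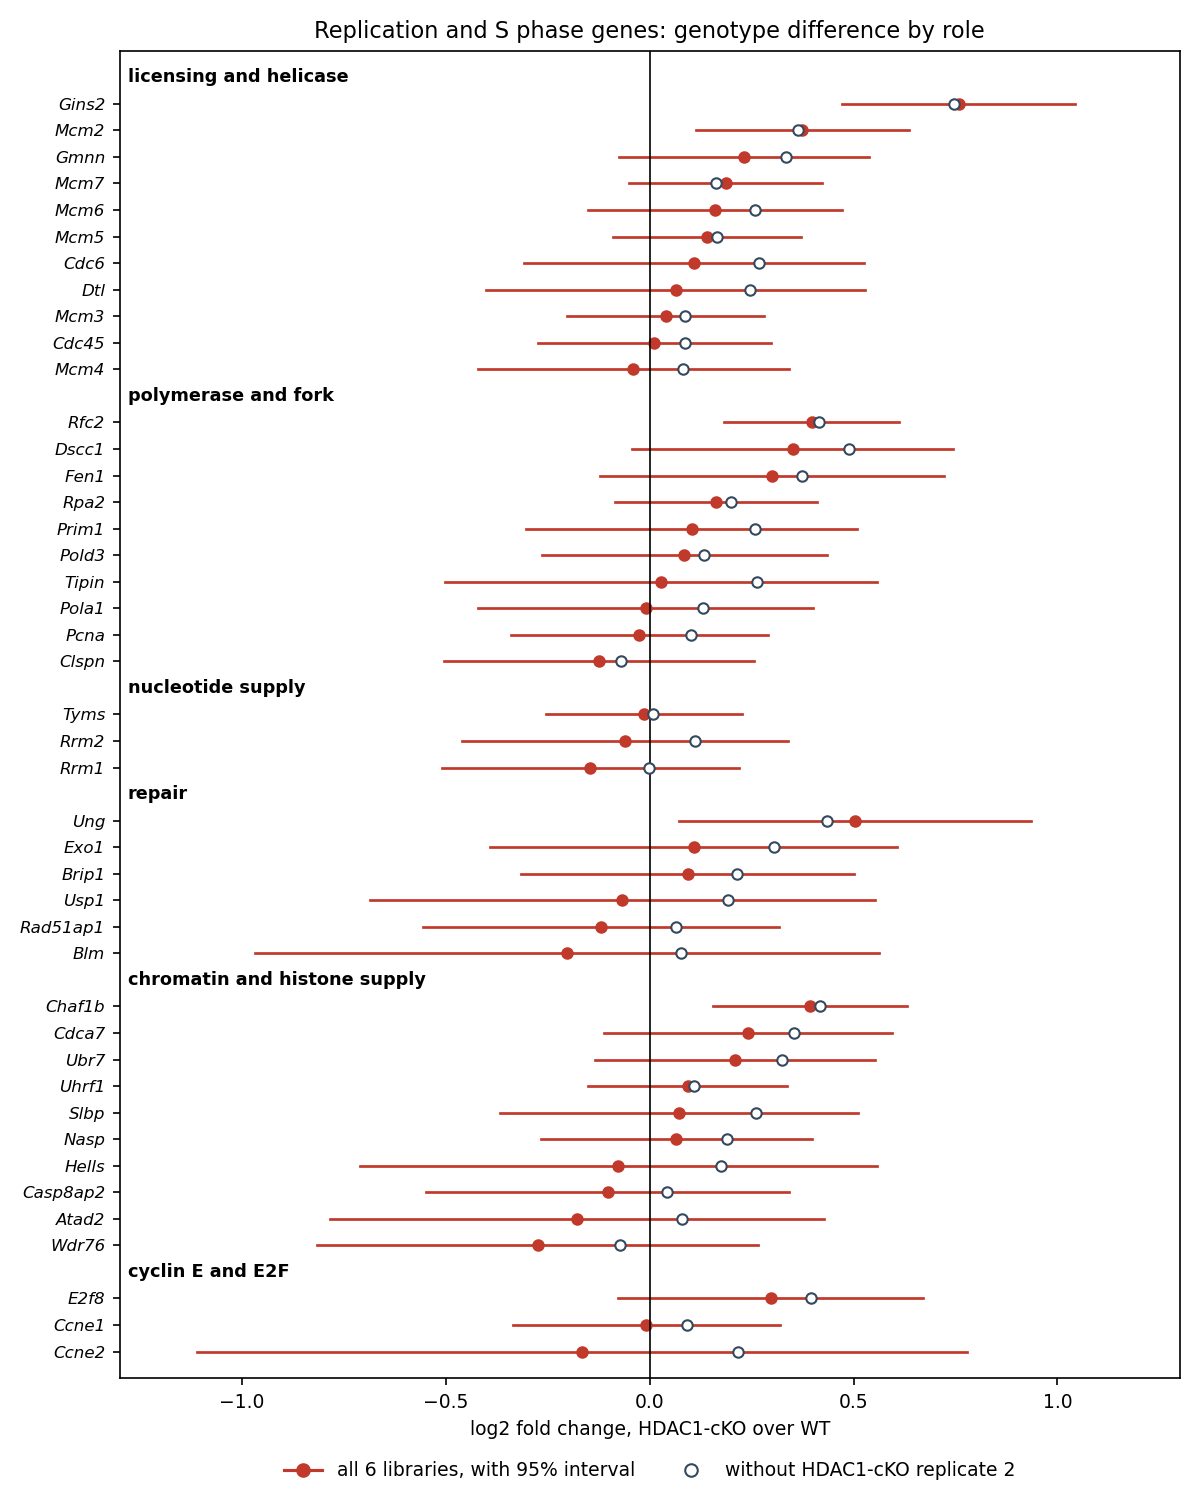
Log2 fold change of HDAC1-cKO over WT for the 43 members, grouped by role and ordered by size; red points and lines are the estimates from all 6 libraries with 95% intervals, and open circles the estimates without HDAC1-cKO replicate 2. The estimate for Gins2 is 0.76, most others lie near 0, and 40 of the 43 open circles are positive.

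Among the 11 licensing and helicase genes, 1 rose, 9.09%, beside 0.979% of all tested genes, and 10 did not pass the test. Of the 11, 10 had a positive fold change, with a median of 0.14, or 0.25 without HDAC1-cKO replicate 2. Gins2 encodes a subunit of the GINS complex, which completes the active helicase. This gene (ENSMUSG00000031821, chr8:120578633-120589304 on the minus strand of GRCm38) stood at 136, 132 and 126 CPM in HDAC1-cKO replicates 1, 2 and 3, against 87.7, 68.0 and 76.9 CPM in WT replicates 1, 2 and 3, an order kept for all values by library below. All 3 HDAC1-cKO libraries lay close together and above every WT library. The means were 131 ± 4.74 CPM in HDAC1-cKO cells and 77.5 ± 9.88 CPM in WT cells, which is a difference of 0.76 ± 0.12 on the log2 scale (SE, 95% interval 0.47 to 1.04, edgeR adjusted p = 0.0310). With HDAC1-cKO replicate 2 left out the value was 0.75 (edgeR adjusted p = 0.0272), and the call was lost when any 1 of the other 5 was left out, at edgeR adjusted p between 0.0541 and 0.132. The exons of Gins2 share 67.3% of their bases with Gse1 on the opposite strand, and the library kit does not mark strand; Gse1 was counted at 3.17 ± 0.847 CPM in HDAC1-cKO libraries and 3.29 ± 0.816 CPM in WT libraries. The other GINS subunits, of which Gins1 and Gins3 were picked after their values were seen, were not called: their log2 fold changes were 0.38 for Gins4, 0.21 for Gins3 and 0.17 for Gins1 (edgeR adjusted p = 0.0994, 0.578 and 0.618), and 0.42, 0.32 and 0.28 without HDAC1-cKO replicate 2.

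The 6 subunits of the MCM ring, Mcm2 to Mcm7, were not called, and their log2 fold changes ran from -0.04 for Mcm4 to 0.37 for Mcm2. Mcm2 stood at 467, 439.7 and 409 CPM in HDAC1-cKO, against 377, 333 and 306 CPM in WT. All HDAC1-cKO libraries were above all WT libraries, by 0.37 ± 0.11 in log2 units (SE, n = 3 libraries per genotype, edgeR adjusted p = 0.140) or by 0.36 when HDAC1-cKO replicate 2 was left out (edgeR adjusted p = 0.116). Mcm7 was at 388, 374 and 337 CPM in HDAC1-cKO cells and 337, 327 and 302 CPM in WT cells. Its groups were also apart, though the lowest HDAC1-cKO value equalled the highest WT value to 3 digits, and the log2 fold change was 0.19 ± 0.10 (SE, edgeR adjusted p = 0.418), or 0.16 without HDAC1-cKO replicate 2. Another annotated gene, Gm5487, shares 16.5% of the Mcm7 transcript in stretches of 50 bases and was itself counted at 32.4 ± 3.09 CPM in HDAC1-cKO libraries and 27.7 ± 1.93 CPM in WT libraries, so part of the Mcm7 value is uncertain.

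The groups overlapped for the other 4 subunits. Mcm3 had 385, 329 and 356 CPM in HDAC1-cKO, against 369.8, 326 and 345 CPM in WT (log2 fold change 0.04, edgeR adjusted p = 0.901). Mcm4 had 449.8, 300.1 and 357 CPM in HDAC1-cKO cells and 436, 354 and 348 CPM in WT cells (log2 fold change -0.04, edgeR adjusted p = 0.937). In both genes replicate 1 was the highest library of its genotype and the genotypes interleaved. Mcm5 gave 421, 378 and 393 CPM in HDAC1-cKO against 381, 335 and 366 CPM in WT, a log2 fold change of 0.14 (edgeR adjusted p = 0.545). Mcm6 gave 941, 686 and 798 CPM in HDAC1-cKO against 791, 671 and 707 CPM in WT, a log2 fold change of 0.16 (edgeR adjusted p = 0.618). Replicate 2 of HDAC1-cKO was the low library of its group in Mcm3 to Mcm6, and without it their log2 fold changes were 0.09, 0.08, 0.17 and 0.26. Scaled for length, the 6 subunits were present in similar amounts: the mean FPKM, as deposited, was 128, 116, 101, 113, 182 and 122 for Mcm2 to Mcm7 in HDAC1-cKO, against 99.3, 113, 105, 103, 163 and 108 in WT. The highest subunit, Mcm6, exceeded the lowest by a factor of 1.80 in HDAC1-cKO and 1.65 in WT.

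The other licensing genes were not called. Their log2 fold changes were 0.23 for Gmnn, the geminin inhibitor of the licensing factor CDT1, 0.11 for the licensing ATPase Cdc6, 0.06 for Dtl, the adaptor of the ubiquitin ligase that degrades CDT1 in S phase, and 0.01 for the helicase subunit Cdc45. Leaving out HDAC1-cKO replicate 2 gave 0.33, 0.27, 0.25 and 0.09.

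**Figure D3:**
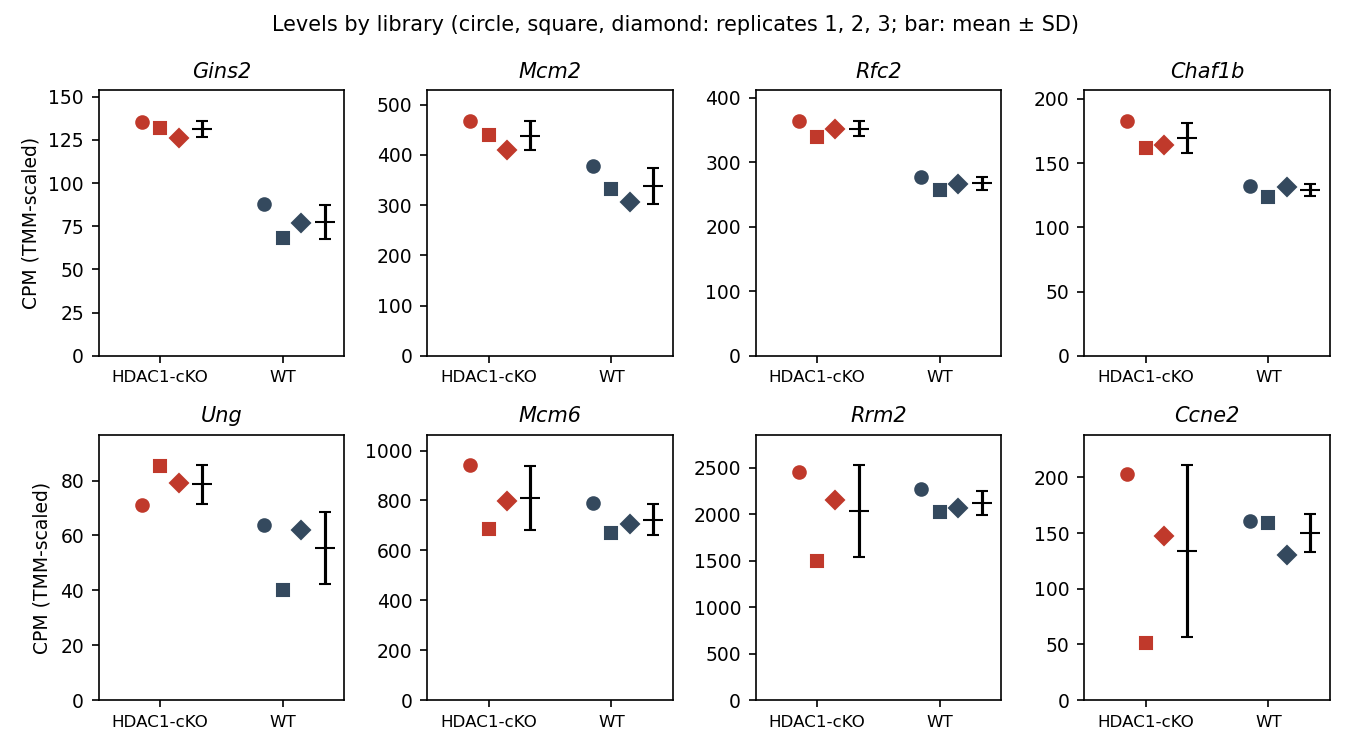
CPM of 8 members in each library, with HDAC1-cKO left of WT in every panel; circles, squares and diamonds are replicates 1, 2 and 3, and the bars beside them give mean and SD (n = 3). In Gins2, Mcm2, Rfc2, Chaf1b and Ung all HDAC1-cKO libraries lie above all WT libraries, while in Rrm2 and Ccne2 the square of HDAC1-cKO replicate 2 lies far below every other library.

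None of the 10 polymerase and fork genes passed the test. At an unadjusted p under 0.05, 1 was higher, 10%, and 0 lower, beside 8.62% of all tested genes higher and 8.39% lower. Of the 10, 7 had a positive fold change, with a median of 0.09, or 0.23 without HDAC1-cKO replicate 2. Rfc2 encodes a small subunit of replication factor C, the loader of the PCNA clamp. It stood at 364, 339.6 and 352 CPM in HDAC1-cKO libraries and 278, 256 and 267 CPM in WT libraries. The libraries of each genotype lay within a narrow range and the genotypes did not overlap, with means of 352 ± 12.0 CPM in HDAC1-cKO, against 267 ± 10.7 CPM in WT (SD, n = 3 each). The log2 fold change of 0.40 ± 0.09 (SE) missed the threshold with all libraries (edgeR adjusted p = 0.0724) and passed it, at 0.41, when HDAC1-cKO replicate 2 was left out (edgeR adjusted p = 0.0340). Lat2 on the opposite strand overlaps 15.1% of the Rfc2 exon bases and was counted at 2.33 ± 0.839 CPM in HDAC1-cKO cells and 0.663 ± 0.456 CPM in WT cells. The other replication factor C subunits, picked after their values were seen, had log2 fold changes of -0.02 (Rfc1), 0.26 (Rfc3), 0.14 (Rfc4) and 0.20 (Rfc5), and were not called (edgeR adjusted p = 0.967, 0.486, 0.787 and 0.472). These were 0.06, 0.39, 0.29 and 0.29 without HDAC1-cKO replicate 2.

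Dscc1, part of an alternative clamp loader that acts in sister chromatid cohesion, was at 47.9, 33.3 and 45.6 CPM in HDAC1-cKO libraries and 36.6, 32.2 and 30.5 CPM in WT libraries. Replicates 1 and 3 of HDAC1-cKO were above every WT library and replicate 2 was among them, and the log2 fold change was 0.35 ± 0.17 (SE, edgeR adjusted p = 0.355), or 0.49 without replicate 2 (edgeR adjusted p = 0.0798). Fen1, the flap endonuclease that trims Okazaki fragments, was at 16.9, 13.3 and 14.8 CPM in HDAC1-cKO, against 13.6, 10.5 and 12.5 CPM in WT. Its groups overlapped (log2 fold change 0.30, edgeR adjusted p = 0.470; 0.37 without HDAC1-cKO replicate 2), and it was the member with the fewest reads, with 303 counts in its lowest library. The antisense gene Gm10143 covers 78.8% of the Fen1 exon bases, and without strand the reads of this pair cannot be told apart. Gm10143 was counted at 0.359 ± 0.335 CPM in HDAC1-cKO libraries and 0.364 ± 0.159 CPM in WT libraries.

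The other 7 fork genes had smaller differences and were not called. On the log2 scale the fold change was 0.16 for Rpa2, a subunit of the single-strand binding protein RPA whose genotypes did not overlap, 0.10 for the primase Prim1, 0.08 for the polymerase delta subunit Pold3 and -0.01 for Pola1, the catalytic subunit of polymerase alpha. It was -0.03 for the clamp Pcna, 0.03 for the fork protection factor Tipin and -0.12 for the checkpoint adaptor Clspn. Pcna-ps2 shares 19.1% of the Pcna transcript and was counted at 76.2 ± 16.3 CPM in HDAC1-cKO cells and 82.7 ± 2.97 CPM in WT cells, so reads could be split between the pair. Leaving out HDAC1-cKO replicate 2 gave 0.20 for Rpa2, 0.26 for Prim1, 0.13 for Pold3, 0.13 for Pola1, 0.10 for Pcna, 0.26 for Tipin and -0.07 for Clspn, so that the sign turned for Pola1 and Pcna.

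The 3 nucleotide supply genes had log2 fold changes near 0, and 0 of 3 passed the test or an unadjusted p under 0.05. Rrm2, the regulated small subunit of ribonucleotide reductase, was by length-scaled level the most abundant member, with 915 ± 223 FPKM in HDAC1-cKO and 957 ± 56.1 FPKM in WT (SD, n = 3 each). Its counts corresponded to 2457, 1494 and 2151 CPM in HDAC1-cKO libraries and 2271, 2024 and 2071 CPM in WT libraries. HDAC1-cKO replicate 1 was the highest and replicate 2 the lowest of all 6 libraries. Its log2 fold change was -0.06 (95% interval -0.46 to 0.34, edgeR adjusted p = 0.905) with all libraries and 0.11 without replicate 2 (edgeR adjusted p = 0.543). Rrm1, the large subunit of the same enzyme, had 558, 360.4 and 469 CPM in HDAC1-cKO, against 527, 478 and 529 CPM in WT. Replicate 2 was again the low library, and the log2 fold change was -0.15 (edgeR adjusted p = 0.718), or 0.00 without it (edgeR adjusted p = 0.994). Tyms, thymidylate synthase, was at 317, 285 and 292 CPM in HDAC1-cKO cells and 327, 279 and 298 CPM in WT cells, with full overlap and a log2 fold change of -0.01 (95% interval -0.26 to 0.23, edgeR adjusted p = 0.965), or 0.01 without HDAC1-cKO replicate 2.

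Of the 6 repair genes 0 passed the test, with 3 fold changes positive and 3 negative. At an unadjusted p under 0.05, 1 of them, Ung, was higher, 16.7%, beside 8.62% of all tested genes. Ung, the glycosylase that removes uracil from DNA and acts in base excision repair, was at 71.2, 85.2 and 79.3 CPM in HDAC1-cKO libraries and 63.8, 40.3 and 62.1 CPM in WT libraries. The groups did not overlap, WT replicate 2 was the low library, and Ung was the member in which HDAC1-cKO replicate 2 was the highest of all 6. In log2 units the difference was 0.50 ± 0.19 (SE, edgeR adjusted p = 0.219), or 0.43 without HDAC1-cKO replicate 2. Rad51ap1, a factor of homologous recombination, stood at 88.6, 52.7 and 79.0 CPM in HDAC1-cKO, against 84.9, 75.7 and 78.5 CPM in WT (log2 fold change -0.12, edgeR adjusted p = 0.819). Blm, a RecQ helicase, stood at 30.2, 14.6 and 32.9 CPM in HDAC1-cKO cells and 40.4, 26.1 and 22.6 CPM in WT cells (log2 fold change -0.20, edgeR adjusted p = 0.826). In both, replicate 2 of HDAC1-cKO was the lowest of all libraries and the groups overlapped; without it the log2 fold changes were 0.06 and 0.08. The mismatch repair exonuclease Exo1, the helicase Brip1 and Usp1, a deubiquitylase of PCNA and FANCD2, had log2 fold changes of 0.11, 0.09 and -0.07, or 0.30, 0.21 and 0.19 without HDAC1-cKO replicate 2. Gm5841 shares 21.4% of the Usp1 transcript and was counted at 10.1 ± 3.73 CPM in HDAC1-cKO libraries and 10.1 ± 0.972 CPM in WT libraries.

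The 10 chromatin and histone supply genes had a median log2 fold change of 0.07, or 0.18 without HDAC1-cKO replicate 2, and 0 passed the test with all libraries. At an unadjusted p under 0.05, 1 of them, Chaf1b, was higher, 10%, beside 8.62% of all tested genes. Chaf1b encodes a subunit of chromatin assembly factor 1 (CAF-1), which places histones on newly made DNA. Its level was 183, 161 and 164 CPM in HDAC1-cKO, against 132, 124 and 131 CPM in WT. The genotypes did not overlap, with means of 169 ± 11.6 CPM in HDAC1-cKO cells and 129 ± 4.67 CPM in WT cells (SD, n = 3 each). The difference was 0.39 ± 0.10 on the log2 scale with all libraries (SE, edgeR adjusted p = 0.0971) and 0.42 with HDAC1-cKO replicate 2 left out (edgeR adjusted p = 0.0477). The large CAF-1 subunit Chaf1a, which is not a member, had 40.4 ± 3.73 CPM in HDAC1-cKO libraries and 33.4 ± 0.834 CPM in WT libraries (log2 fold change 0.27, edgeR adjusted p = 0.338).

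Cdca7, which partners the chromatin remodeller HELLS, was at 135, 99.6 and 127 CPM in HDAC1-cKO, against 117, 97.2 and 91.4 CPM in WT, a log2 fold change of 0.24 (edgeR adjusted p = 0.491). Ubr7, a ubiquitin ligase of the N-recognin family, was at 85.3, 59.1 and 71.3 CPM in HDAC1-cKO cells and 63.8, 61.6 and 61.2 CPM in WT cells, a log2 fold change of 0.21 (edgeR adjusted p = 0.541). In both genes replicates 1 and 3 of HDAC1-cKO were above every WT library and replicate 2 was not, and without it the log2 fold changes were 0.35 and 0.33. The remaining log2 fold changes were 0.09 for Uhrf1, the partner of the maintenance methyltransferase DNMT1, 0.07 for the histone stem-loop binding protein Slbp, 0.07 for the histone chaperone Nasp and -0.08 for Hells. They were -0.10 for Casp8ap2, a factor of histone mRNA processing, -0.18 for the bromodomain ATPase Atad2 and -0.27 for Wdr76, a WD-repeat protein. With HDAC1-cKO replicate 2 left out they were 0.11 for Uhrf1, 0.26 for Slbp, 0.19 for Nasp, 0.17 for Hells, 0.04 for Casp8ap2, 0.08 for Atad2 and -0.07 for Wdr76, so that the sign turned for Hells, Casp8ap2 and Atad2. Gm5648 shares 14.7% of the Uhrf1 transcript and was counted at 5.67 ± 0.347 CPM in HDAC1-cKO libraries and 4.80 ± 0.306 CPM in WT libraries.

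The cyclin E and E2F group held 3 genes, and 0 passed the test or an unadjusted p under 0.05. E2f8, an atypical E2F that represses E2F targets late in S phase, had 102, 70.2 and 76.1 CPM in HDAC1-cKO, against 60.8, 72.1 and 69.2 CPM in WT. Replicates 1 and 3 of HDAC1-cKO were above all WT libraries and replicate 2 was among them (log2 fold change 0.30, edgeR adjusted p = 0.416; 0.39 without replicate 2). The antisense gene Gm2788 overlaps 11.2% of the E2f8 exon bases and was counted at 1.80 ± 0.433 CPM in HDAC1-cKO cells and 0.725 ± 0.221 CPM in WT cells. Ccne1 and Ccne2 encode cyclin E, which with CDK2 drives entry into S phase. Ccne2 was at 203, 51.2 and 148 CPM in HDAC1-cKO cells and 161, 159 and 131 CPM in WT cells. The value in HDAC1-cKO replicate 2 lay far below those of the other 5 libraries, while replicate 1 was the highest. Its log2 fold change was -0.17 with all libraries, with the widest interval of the members (-1.11 to 0.78, edgeR adjusted p = 0.890), and 0.22 without replicate 2 (edgeR adjusted p = 0.504). The antisense gene Ints8 overlaps 17.4% of the Ccne2 exon bases and was counted at 12.3 ± 1.72 CPM in HDAC1-cKO libraries and 11.0 ± 3.94 CPM in WT libraries. Ccne1 was at 202, 149 and 179 CPM in HDAC1-cKO, against 200.4, 164 and 169 CPM in WT, with overlapping groups and a log2 fold change of -0.01 (edgeR adjusted p = 0.985), or 0.09 without HDAC1-cKO replicate 2.

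Length-scaled levels spanned a wide range among the members, and mean FPKM ran from 4.70 for Brip1 to 915 for Rrm2 in HDAC1-cKO and from 4.41 to 957 for the same genes in WT. After Rrm2 came Pcna, with 358 ± 61.1 FPKM in HDAC1-cKO and 366 ± 17.0 FPKM in WT. Slbp was next, with 282 ± 75.0 FPKM in HDAC1-cKO and 269 ± 20.8 FPKM in WT (SD, n = 3 each). The intervals of mean and SD of Pcna and Slbp overlapped in HDAC1-cKO and did not in WT, and within every library Pcna was above Slbp. Near the low end were Blm, with 5.16 ± 1.98 FPKM in HDAC1-cKO and 5.94 ± 1.86 FPKM in WT, and Fen1, with 6.11 ± 0.740 FPKM in HDAC1-cKO and 4.98 ± 0.636 FPKM in WT. Whether the overlap of Fen1 with Gm10143 lowered its count was not tested. The intervals of mean and SD of Blm, Fen1 and Brip1 overlapped in each genotype. Within libraries, Fen1 was above Brip1 in every HDAC1-cKO library, though not in every WT library. The length behind the deposited FPKM was within 10% of the longest annotated transcript for 34 of the 43 members and not for the other 9, which bears on comparisons between genes and not on those between genotypes.

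The members varied together from library to library. Over the 43 genes, the median log2 difference from the mean of the WT libraries was 0.31, -0.24 and 0.12 in HDAC1-cKO replicates 1, 2 and 3, against 0.11, -0.07 and -0.03 in WT replicates 1, 2 and 3. HDAC1-cKO replicate 1 was the highest of all 6 libraries for 37 of the 43 members, and replicate 2 was the lowest of the HDAC1-cKO libraries for 37 and the lowest of all 6 for 23. Summed over the members, expression was 12381, 8728 and 10937 CPM in HDAC1-cKO, against 10987, 9757 and 9913 CPM in WT. The WT libraries lay between the highest and the lowest HDAC1-cKO library.

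**Figure D4:**
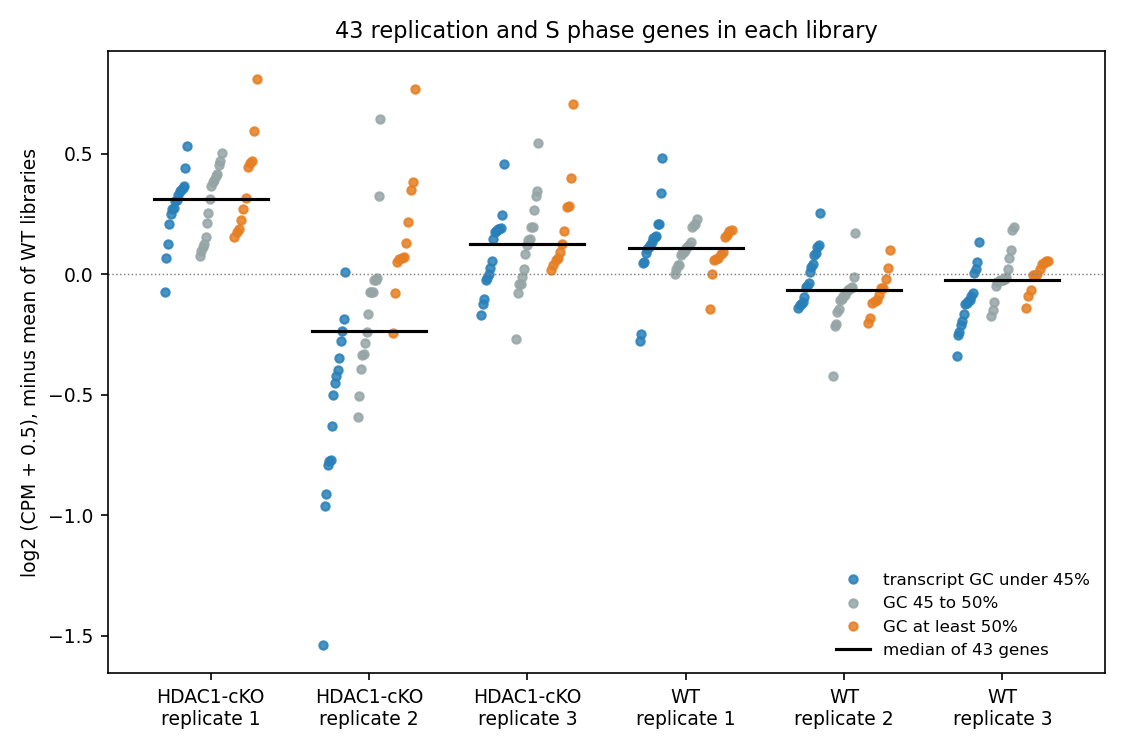
Level of each of the 43 members in each library as log2(CPM + 0.5) minus the mean of the WT libraries, coloured by the GC content of the longest transcript; black lines are medians over the members. The median is 0.31 in HDAC1-cKO replicate 1 and -0.24 in replicate 2, where members of low GC content lie lowest.

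GC content moved with the values of HDAC1-cKO replicate 2. Across the 43 members, which share libraries and are not independent, the deviation of replicate 2 from the 6-library mean had a Pearson r of 0.741 with transcript GC content, while r was between -0.534 and -0.0889 in the other 5 libraries. Relative to the mean of replicates 1 and 3, replicate 2 had a median log2 difference of -0.67 over the 16 members under 45% GC, -0.37 over the 16 from 45 to 50% and -0.10 over the 11 of at least 50%. Other tested genes with a mean log2 CPM over 4 showed a like trend at a higher level, with medians of -0.41 under 45%, -0.09 from 45 to 50% and 0.21 from 50% upward, n = 6980 in all. Over all GC classes the median was -0.42 for the members and -0.03 for these genes.

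The genotype comparison followed the same order. Among members under 45% GC the median log2 fold change was -0.04 with all libraries and 0.19 without HDAC1-cKO replicate 2, while among members of at least 50% GC it was 0.19 with all libraries and 0.20 without that library. When each library's GC trend was taken out by offsets, Gins2 was the 1 member called (log2 fold change 0.69, edgeR adjusted p = 0.0262), beside 1.55% of all tested genes higher and 1.59% lower. Under these offsets 31 members had a positive fold change, the median was 0.12, and 7 members were higher at an unadjusted p under 0.05, 16.3%, beside 9.83% of all tested genes higher and 9.37% lower. The source of the position of replicate 2 was not tested.

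**Figure D5:**
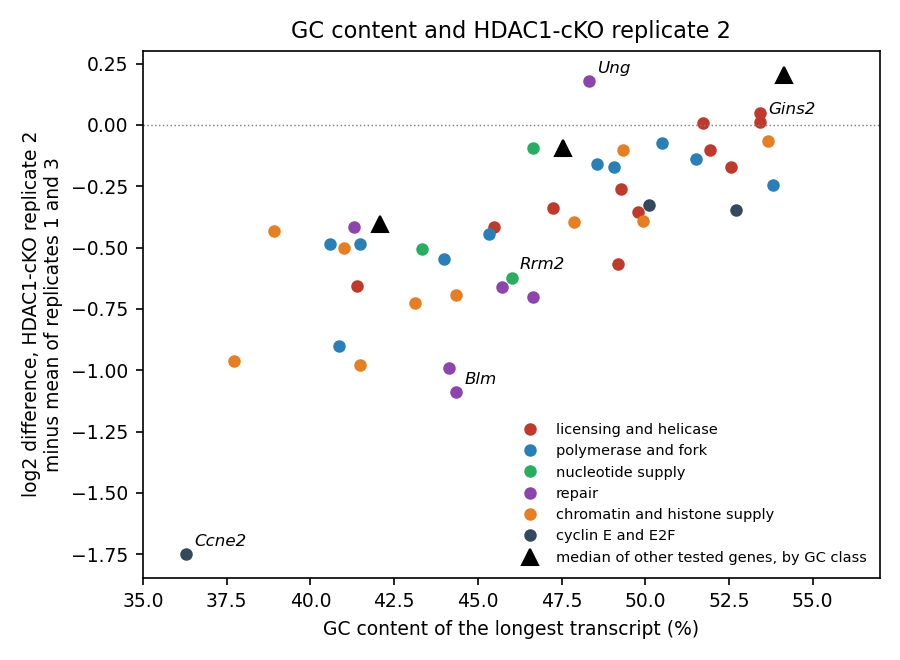
Log2 difference between HDAC1-cKO replicate 2 and the mean of HDAC1-cKO replicates 1 and 3 against transcript GC content for the 43 members, coloured by role; black triangles are medians of other tested genes in 3 GC classes. Ccne2, the member with the lowest GC content, lies lowest, and the members lie mostly below the triangles, with Ung above that of its class.

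The median fold change was also positive among replication genes outside the set. Of 65 further genes of licensing, polymerases, nucleotide supply and chromatin assembly, 0 were called with all libraries by edgeR. At an unadjusted p under 0.05, 9 were higher, 13.8%, and 0 lower, beside 8.62% of all tested genes higher and 8.39% lower. The median log2 fold change was 0.13 with 44 positive. By list it was 0.08 for licensing and helicase, 0.13 for polymerases and the fork and 0.21 for nucleotide supply. For the 6 chromatin assembly genes it was -0.06, with 2 positive and 4 negative, or 0.04 without HDAC1-cKO replicate 2, with 3 positive. Without HDAC1-cKO replicate 2, 22 were higher at an unadjusted p under 0.05, 33.8%, beside 9.58% of all tested genes. In that fit 53 were positive and the median was 0.23. Gins4 rose (log2 fold change 0.42, edgeR adjusted p = 0.0393), which is 1.54% of the 65 genes, beside 1.60% of all tested genes higher. Gins4 had 149.9, 137 and 149 CPM in HDAC1-cKO cells and 117, 109 and 108 CPM in WT cells, so the genotypes did not overlap. Log2 fold changes were 0.36 for Cdt1, which loads the MCM ring with CDC6, 0.42 for Pole3 of polymerase epsilon and 0.32 for Rnaseh2a, part of the enzyme that removes RNA from DNA (edgeR adjusted p = 0.216, 0.140 and 0.273). They were 0.56 for Shmt2, the mitochondrial serine hydroxymethyltransferase, 0.43 for the nucleotide pyrophosphatase Dctpp1 and 0.30 for the histone chaperone Asf1b (edgeR adjusted p = 0.0858, 0.108 and 0.202).

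Genes that control the passage from G1 to S phase were not called either, 0 of 27 tested by edgeR, with 3 higher, 11.1%, and 4 lower at an unadjusted p under 0.05, beside 8.62% and 8.39% of all tested genes, and a median log2 fold change of 0.02. When HDAC1-cKO replicate 2 was left out the median was 0.18, with 5 higher and 5 lower at that p, beside 9.58% and 11.1% of all tested genes. Rbl2, the pocket protein p130 that holds E2F genes silent in quiescent cells, was at 70.4 ± 5.67 CPM in HDAC1-cKO libraries and 105 ± 17.7 CPM in WT libraries (SD, n = 3 each; log2 fold change -0.58, edgeR adjusted p = 0.0949). Cdk4, a kinase that inactivates the pocket proteins, was at 388 ± 20.3 CPM in HDAC1-cKO, against 285 ± 44.1 CPM in WT (log2 fold change 0.45, edgeR adjusted p = 0.124). Without HDAC1-cKO replicate 2, Ccnd2, which encodes cyclin D2, fell by 0.81 on the log2 scale (edgeR adjusted p = 0.0396). This call is 3.7% of the 27 genes, beside 2.28% of all tested genes lower. The value of Ccnd2 with all libraries was -0.37 (edgeR adjusted p = 0.581).

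Genes of G2 and mitosis, which follow S phase, had mostly negative fold changes, while those of the S phase members were mostly positive. Of 52 tested G2/M genes 0 were called by edgeR. At an unadjusted p under 0.05, 0 were higher and 3 lower, beside 8.62% of all tested genes higher and 8.39% lower. Of the 52 genes 40 had a negative fold change, with a median log2 value of -0.15. With HDAC1-cKO replicate 2 left out, 29 were negative and the median was -0.03. With offsets for each library's GC trend, 37 were negative and the median was -0.10. The values also followed GC content. With all libraries and no offsets, the median was -0.26 over the 23 G2/M genes under 45% GC. It was -0.09 over the 15 from 45 to 50% and 0.02 over the 14 of at least 50%. Hmgb2, a chromatin protein high in G2 and mitosis, was at 1554 ± 157 CPM in HDAC1-cKO cells and 2091 ± 11.9 CPM in WT cells (SD, n = 3 each; log2 fold change -0.43, edgeR adjusted p = 0.0754), and Cks2, a subunit of cyclin-dependent kinases, had a log2 fold change of -0.40 (edgeR adjusted p = 0.158). Hmgb2 was called without HDAC1-cKO replicate 2, at -0.37 (edgeR adjusted p = 0.0391), which is 1.92% of the G2/M genes, beside 2.28% of all tested genes lower. With the GC offsets it was at -0.20 (edgeR adjusted p = 0.405). The summed CPM of the S phase members divided by that of the G2/M genes was 0.822, 0.747 and 0.769 in HDAC1-cKO replicates 1, 2 and 3, against 0.757, 0.645 and 0.644 in WT replicates 1, 2 and 3. The ratio of HDAC1-cKO replicate 2 lay below that of WT replicate 1, so the groups overlapped. An exact permutation test of this ratio over 3 against 3 libraries cannot give a two-sided p below 0.10, and none was run.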

How the data were processed

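Polyadenylated RNA of pools of 500 sorted cells was sequenced in 6 libraries, 3 of each genotype. Per the labels' protocols, cDNA was made with Smart-seq2 and read as single reads after a transposase library step that does not mark strand. The authors deposited, for each gene and library, raw read counts as whole numbers and, separately, FPKM. STAR 2.5.2b, Picard 2.19.2, R 3.6.1 and DESeq2 1.24.0 are named in the submitters' processing notes; the strand setting, the read counter and the treatment of reads with several positions are not given in the sources used. Over 10896 genes, the deposited FPKM equalled the count times a constant per gene and a factor per library that was the DESeq2 size factor. For 55450 of 55536 genes, identifiers and coordinates were those of GENCODE M21 on GRCm38.

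Groups came from the genotype labels. Genes passing filterByExpr were scaled by TMM, and the quasi-likelihood F test of edgeR was used (edgeR 4.0.16, limma 3.58.1, R 4.3.3; two-sided, robust, Benjamini-Hochberg adjusted p under 0.05 over all tested genes). The script was tested on simulated counts. The members and all gene lists were chosen with earlier results of these data known. Members given by library are those called, the 3 with the lowest p in each of 6 role groups, and Mcm2 to Mcm7; of other lists, called genes or the 2 with the lowest p are named, and any others are said to be picked later. GC content, transcript overlaps and copies sharing stretches of 50 bases came from GENCODE M21, and promoters from RefSeq (GRCm38.p6). Alternatives were other scalings and filters, DESeq2 1.42.0, limma-voom with sample weights, limma on log2 FPKM, thinned counts, GC offsets, a replicate block and leaving out each library. Precision is set by 3 libraries per group: reads carry no molecular identifiers, and p-values measure the spread between these pools of 2 mice. Plots were made with Python 3.11.15 and matplotlib 3.10.9.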

Additional observations from a re-analysis of the deposited data

How the results depend on the processing

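Gins2 stayed higher in HDAC1-cKO under every alternative, and its call was lost with the replicate block and when any 1 library except HDAC1-cKO replicate 2 was left out. The members called higher were 1 with all libraries, 2 with a filter of at least 10 CPM in 3 libraries, 4 with DESeq2, 5 with limma-voom with sample weights, 3 at an adjusted p under 0.1, and 0 to 3 when each library was left out; 0 members were called lower in any of these. The median log2 fold change of the members ran from -0.045 to 0.19 when each library was left out. Over all genes, 152 were higher and 154 lower, against 698 and 665 with DESeq2, 770 and 819 with limma-voom, 241 and 247 with GC offsets, 405 and 413 at an adjusted p under 0.1, 15 to 258 and 10 to 368 when each library was left out, and 243 lower with no low-count filter. With total count scaling, which moved the median of all genes to 0.05, 195 were higher and 134 lower. The deviations of same-numbered libraries of both genotypes had a Pearson r of 0.0238, -0.00161 and -0.0422. Libraries of different numbers had an r from -0.0478 to 0.0501. With 3 libraries per group these values cannot settle whether the numbers pair the samples. A replicate block gave 34 genes higher and 31 lower, with 0 members called and Gins2 at 0.77 (edgeR adjusted p = 0.0701).

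When each library was left out in turn, the range of log2 fold changes crossed 0 for 24 of the 43 members. Among members described by library the sign turned for 8 under at least 1 alternative, and the cause was not tested. With limma-voom the values were 0.0686 for Rrm2, 0.0166 for Tyms, 0.0209 for Rad51ap1, 0.152 for Blm, 0.0636 for Ccne2, 0.0898 for Ccne1 and 0.0566 for Mcm4. With total count scaling they were 0.0398 for Tyms, 0.0446 for Ccne1 and 0.0122 for Mcm4. GC offsets gave 0.0169 for Tyms, -0.017 for Mcm3 and 0.00616 for Mcm4, and with the replicate block added 0.0186, -0.0239 and 0.00425. Ccne1 was 0.0027 with the 10 CPM filter and 0.00453 with thinned counts. When each library was left out, the ranges were -0.225 to 0.111 for Rrm2, -0.0793 to 0.0381 for Tyms, -0.283 to 0.0643 for Rad51ap1, -0.411 to 0.0771 for Blm, -0.604 to 0.216 for Ccne2, -0.12 to 0.0917 for Ccne1, -0.0256 to 0.0858 for Mcm3 and -0.212 to 0.0811 for Mcm4.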
